A study of Mus musculus with 9 samples.

Results

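Transcripts of 33 genes that build autophagosomes or set the activity of the mTOR kinase were followed in the hearts of 9 adult mice. The genes were chosen by symbol, with no measured value in the rule, although earlier results of these data were known. All 33 were found among the 23457 entries of the count table. Hearts of 4 mice that the labels call germline Parkin knockouts (KO) were compared with hearts of 5 wild-type mice (WT), all on a C57BL/6J background with no treatment named in the labels. A germline deletion affects every cell of the animal, and Parkin is a ubiquitin ligase that tags damaged mitochondria for removal by autophagy. The study used the mouse hearts as an adjunct to its work in Drosophila. Each library held polyadenylated RNA from the frozen ventricular apex of 1 heart, although the tissue field names the whole heart. P-values therefore measure the spread between single hearts, and every direction rests on the genotype labels.

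Autophagy begins when the ULK kinase complex switches on a lipid kinase complex built around VPS34, the product of Pik3c3, which marks a patch of membrane with the lipid PI3P. WIPI proteins read that mark, ATG9 vesicles and the lipid channel protein ATG2 feed the growing membrane, and a ubiquitin-like conjugation machinery then attaches proteins of the LC3 family to it. The complex mTORC1 holds this process back when nutrients are plentiful, while the TSC1-TSC2 complex restrains mTORC1 by switching off the small GTPase RHEB. In heart muscle, whose cells are rarely replaced, autophagy is known for clearing worn mitochondria and protein aggregates. Much of its control acts on proteins rather than on transcripts, and only transcripts were measured here.

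Assigned reads per heart ranged from 4415183 to 20827699, of which the 33 genes took 15625 to 22638 in KO hearts and 2613 to 21892 in WT hearts. Reads of mitochondrially encoded genes took 10.04% to 15.41% of the total in KO hearts and 32.6% to 58.2% in WT hearts. Values are given as CPM, reads scaled to a common library size with TMM factors, unless stated. Summed markers of ventricular cardiomyocytes lay at 72670 to 81530 CPM in KO hearts and 56880 to 62490 CPM in WT hearts, and 3 of these 8 markers were called higher and 1 lower. The 3 atrial markers summed to 1.05 to 4.37 CPM in KO hearts and 1.39 to 3.82 CPM in WT hearts, close to 0. Endothelial markers summed to 721 to 868 CPM in KO hearts and 765 to 939 CPM in WT hearts, with 3 of 8 called higher and 2 lower. Fibroblast and matrix markers summed to 591 to 1052 CPM in KO hearts and 552 to 717 CPM in WT hearts, with 3 of 8 called higher and 3 lower. Mural markers summed to 695 to 929.8 CPM in KO hearts and 545 to 756 CPM in WT hearts, and immune markers to 168 to 201 CPM in KO hearts and 149 to 207 CPM in WT hearts. Skeletal muscle markers stood at 9.82 to 22.8 CPM in KO hearts and 1.04 to 5.46 CPM in WT hearts, without overlap. Of these 5 markers, 2 had enough reads to be tested, and both were called higher. Most of the sum in KO hearts was Myh2, at 14.3 ± 6.01 CPM in KO hearts and 1.23 ± 1.53 CPM in WT hearts. Erythroid markers stood at 8.59 to 20.4 CPM in KO hearts and 11.3 to 21.7 CPM in WT hearts. In such bulk tissue, fewer cells of a type and less RNA per cell cannot be told apart, and the part of cell composition in the results below was not tested.

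The core autophagy and mTOR genes moved in both directions, and most did not pass the test. By edgeR's quasi-likelihood test at an adjusted p threshold of 0.05, 10 of the 33 were higher in KO hearts (30.3%, where 26.2% of all tested genes were called higher) and 5 were lower (15.2%, where 25.2% of all tested genes were). In either direction 45.5% were called, against 51.4% of 12640 tested genes, so the share is no larger than the background. The genes called higher were Becn1, Atg9a, Atg2a, Wipi1, Wipi2, Atg4b, Atg4d, Atg16l1, Atg16l2 and Mtor. Those called lower were Rb1cc1, Atg3, Atg4a, Rictor and Rheb. The same 10 and 5 genes were those whose KO and WT hearts did not overlap in CPM, above in 30.3% and below in 15.2% of the 33, beside 22.3% and 19.3% of all tested genes (41.6% in all). The median log2 fold change (KO over WT) was 0.12 over the 33 genes and -0.0059 over all tested genes. DESeq2 called 11 of the 33 higher and 5 lower, beside 22.9% and 22.1% of the genes it tested (45% in all). Of the 15 calls by edgeR, 14 held when each heart in turn was left out. The call on Wipi1 held in 3 of 9 such fits and was lost without KO replicate 2 or 3 or WT replicate 2, 3, 4 or 5, where its adjusted p by edgeR reached at most 0.0985 and its log2 fold change lay at 0.23 to 0.28.

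**Figure D1:**
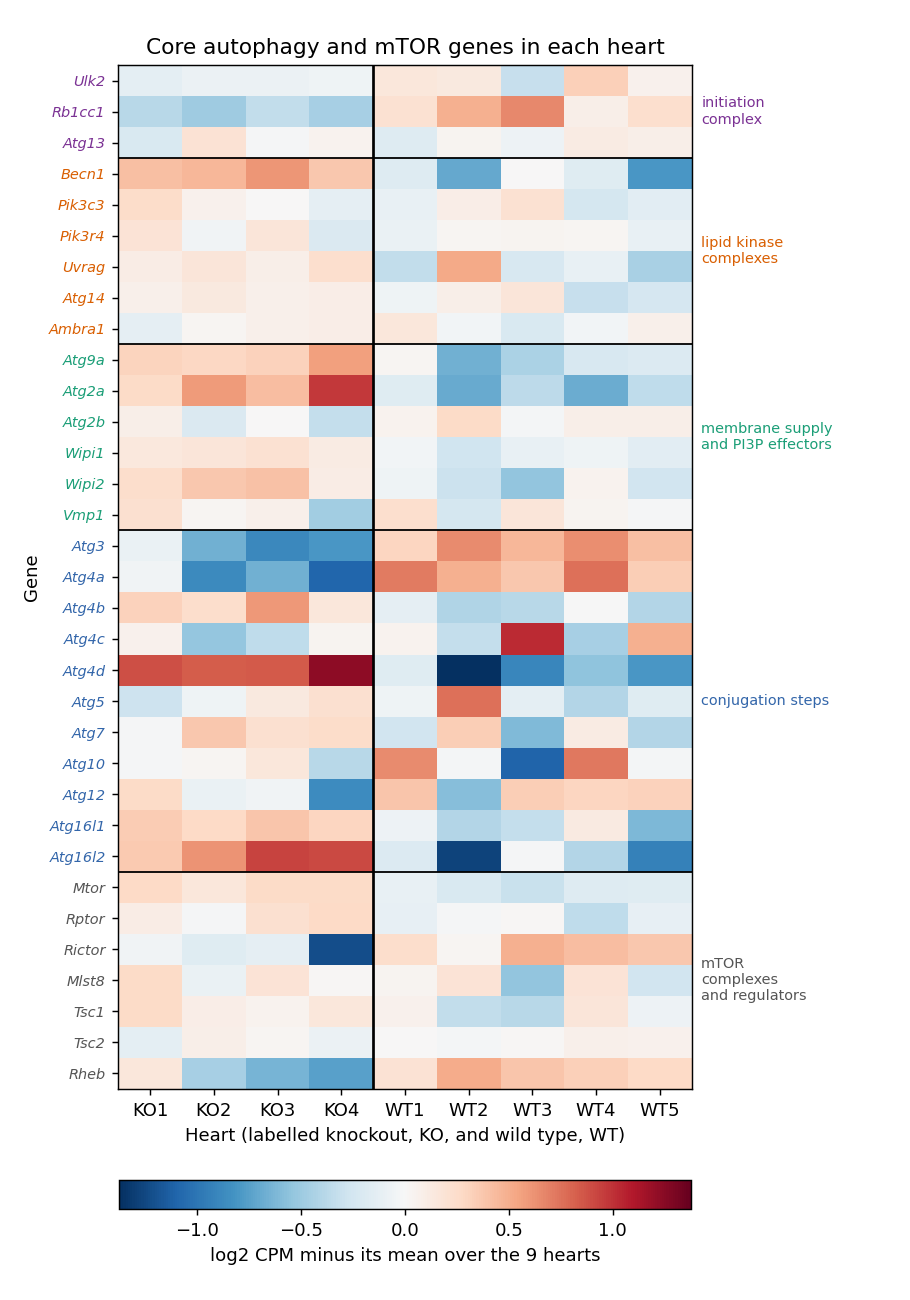
Each cell shows the log2 CPM of one gene in one heart minus that gene's mean over the 9 hearts (KO hearts left, WT hearts right), with genes grouped by role. Becn1, Atg2a, Atg4d and Atg16l2 are red in all 4 KO hearts, Rb1cc1, Atg3 and Atg4a are blue or pale in all 4, and most other genes show no clean break between the groups.

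Among the 33 were 3 genes of the ULK initiation complex, of which the scaffold subunit fell and the kinase Ulk2 and the regulator did not pass the test. The shares of all tested genes, 26.2% called higher and 25.2% lower, also stand beside the counts of each role below. Rb1cc1 encodes FIP200, the scaffold of the complex (chr1:6206197-6276648, GRCm38, plus strand). It had 15.3, 14.3, 15.9 and 14.6 CPM in KO hearts 1 to 4, against 23.2, 28.1, 31.7, 21.1 and 23.6 CPM in WT hearts 1 to 5. All 4 KO hearts were lower than the lowest WT heart, and the KO values lay close together. Rb1cc1 averaged 15.02 ± 0.724 CPM in KO hearts and 25.5 ± 4.28 CPM in WT hearts (SD, n = 4 and n = 5), a log2 fold change of -0.74 ± 0.14 (edgeR, adjusted p = 6.22e-04). With the trends on GC content and length removed, as described with the base composition results, it was 0.089 and not called. Ulk2, a kinase of the complex, differed by -0.18 ± 0.13 on the log2 scale (edgeR, adjusted p = 0.252), with 44.6 to 47.0 CPM in KO hearts inside the WT range of 39.1 to 61.1 CPM. Atg13, the regulatory subunit that joins kinase and scaffold, differed by 0.012 ± 0.12 (edgeR, adjusted p = 0.945), with 46.2 to 61.7 CPM in KO hearts and 47.3 to 58.1 CPM in WT hearts. Ulk1, another kinase of the complex and not among the 33 genes, was called higher (log2 fold change 0.52 ± 0.13, edgeR, adjusted p = 0.0042). It averaged 114 ± 12.4 CPM in KO hearts and 78.9 ± 11.6 CPM in WT hearts. With the same trends removed it was -0.030 and not called.

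Among the 6 genes of the lipid kinase complexes, 1 rose and the others did not pass the test. Becn1 encodes Beclin 1, the subunit through which many regulators act on VPS34 (chr11:101285952-101302286, minus strand). It had 27.9, 28.9, 31.9 and 27.2 CPM in KO hearts 1 to 4, against 18.6, 12.8, 21.0, 18.7 and 12.1 CPM in WT hearts 1 to 5. Every KO heart was above every WT heart, and WT hearts 2 and 5 were lowest. Becn1 averaged 29.0 ± 2.08 CPM in KO hearts and 16.6 ± 3.95 CPM in WT hearts, 1.73 times the WT level (log2 fold change 0.79 ± 0.16, edgeR, adjusted p = 9.12e-04). Its partners in the same complexes overlapped between the groups. Pik3c3, the catalytic subunit, differed by 0.12 ± 0.15 on the log2 scale (edgeR, adjusted p = 0.534). Pik3r4, the regulatory kinase-like subunit, differed by 0.059 ± 0.13 (adjusted p = 0.719). Atg14, which directs the complex to autophagosome formation, differed by 0.19 ± 0.16 (adjusted p = 0.329). Uvrag, which takes the place of Atg14 in the complex of later endosomal steps, differed by 0.27 ± 0.18 (adjusted p = 0.214), with WT heart 2 at 17.3 CPM above every KO heart. Without WT replicate 2 its log2 fold change was 0.40 and passed the threshold (edgeR, adjusted p = 0.0315). Ambra1, a positive regulator of Beclin 1, had 29.9 to 34.8 CPM in KO hearts and 28.1 to 36.3 CPM in WT hearts, a log2 fold change of 0.014 ± 0.12 (edgeR, adjusted p = 0.93). Within single hearts, the ratio of Becn1 to Pik3r4 reads was 1.08 to 1.37 in KO hearts and 0.552 to 0.899 in WT hearts. That of Becn1 to Pik3c3 was 2.17 to 2.95 in KO hearts and 1.121 to 2.05 in WT hearts. These ratios do not depend on the normalisation between hearts, and both pairs of ranges are apart.

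Among the 6 genes that supply membrane or read PI3P, 4 rose and 2 did not pass the test. Of all tested genes, 26.2% were called higher. Of the 4, only Atg2a was also called in each of the 3 corrected fits described with the base composition results. Atg2a encodes one of the paired ATG2 proteins that carry lipids into the growing membrane (chr19:6241668-6262335, plus strand). It had 59.8, 74.97, 66.8 and 98.1 CPM in KO hearts 1 to 4, against 44.4, 30.9, 38.8, 31.0 and 39.2 CPM in WT hearts 1 to 5. The groups did not overlap, and KO heart 4 was highest. Atg2a averaged 74.9 ± 16.7 CPM in KO hearts and 36.9 ± 5.84 CPM in WT hearts, a log2 fold change of 1.01 ± 0.16 (edgeR, adjusted p = 1.33e-04). Its paralogue Atg2b had 27.7, 22.9, 26.4 and 20.9 CPM in KO hearts 1 to 4, against 27.1, 31.6, 25.8, 27.8 and 27.9 CPM in WT hearts 1 to 5. These ranges overlap, and Atg2b differed by -0.19 ± 0.13 (edgeR, adjusted p = 0.232). Within each heart the ratio of Atg2a to Atg2b reads was 2.16 to 4.69 in KO hearts and 0.978 to 1.64 in WT hearts.

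Atg9a encodes the scramblase of the vesicles that seed the membrane (chr1:75180860-75192196, minus strand). It had 108, 107, 109 and 129.9 CPM in KO hearts 1 to 4, against 88.9, 55.5, 64.9, 75.01 and 76.7 CPM in WT hearts 1 to 5. KO heart 4 stood above the other KO hearts, and all 4 were above the WT hearts. Its log2 fold change was 0.64 ± 0.14 (edgeR, adjusted p = 0.00134), and 0.18 and not called with the correction for transcript GC content and length. Wipi2, the PI3P reader that recruits ATG16L1 (chr5:142627698-142670588, plus strand), had 34.7, 37.8, 38.7 and 31.5 CPM in KO hearts 1 to 4, against 28.1, 23.9, 20.1, 30.3 and 24.4 CPM in WT hearts 1 to 5. The lowest KO heart was 31.5 CPM and the highest WT heart 30.3 CPM, so the groups were separate by a small margin. Its log2 fold change was 0.47 ± 0.14 (edgeR, adjusted p = 0.00926). Wipi1, the related PI3P reader, had 82.0, 82.7, 85.2 and 79.7 CPM in KO hearts 1 to 4, against 71.7, 61.0, 69.0, 70.7 and 66.6 CPM in WT hearts 1 to 5, a log2 fold change of 0.28 ± 0.11 (edgeR, adjusted p = 0.0379). It was not called in any of the 3 corrected fits (0.16, 0.13 and 0.21). The ratio of Wipi1 to Wipi2 reads overlapped between the groups, at 2.19 to 2.53 in KO hearts and 2.33 to 3.43 in WT hearts. Vmp1, a scramblase of the endoplasmic reticulum needed for autophagosome formation, had 11.2 to 18.1 CPM in KO hearts and 13.2 to 18.3 CPM in WT hearts and did not pass the test (log2 fold change -0.076 ± 0.16, edgeR, adjusted p = 0.707).

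The 11 genes of the conjugation steps moved in both directions, with 4 higher, 2 lower and 5 not called. Of the 4 ATG4 proteases, which trim LC3 proteins before conjugation and free them afterwards, 2 rose, 1 fell and 1 did not pass the test. Atg4d (chr9:21265293-21277772, plus strand) had 36.6, 35.3, 35.6 and 46.5 CPM in KO hearts 1 to 4, against 17.6, 7.63, 10.7, 13.5 and 11.4 CPM in WT hearts 1 to 5. Every KO heart held at least 35.3 CPM and no WT heart more than 17.6 CPM. Atg4d averaged 38.5 ± 5.38 CPM in KO hearts and 12.2 ± 3.71 CPM in WT hearts, 3.01 times the WT level (log2 fold change 1.59 ± 0.18, edgeR, adjusted p = 1.62e-05). It had the largest fold change among the 33 genes in the uncorrected fit. Atg4b, the most active of the proteases on LC3 in biochemical work, had 17.2, 16.4, 21.0 and 15.5 CPM in KO hearts 1 to 4, against 12.7, 10.4, 10.7, 13.8 and 10.4 CPM in WT hearts 1 to 5. It rose with a log2 fold change of 0.57 ± 0.15 (edgeR, adjusted p = 0.00542).

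Atg4a, a protease with preference for the GABARAP branch of the LC3 family (chrX:140956907-141164270, plus strand), had 3.09, 1.75, 2.02 and 1.503 CPM in KO hearts 1 to 4, against 5.25, 4.51, 4.15, 5.41 and 4.06 CPM in WT hearts 1 to 5. It was lower in every KO heart than in any WT heart, and KO heart 1 was the nearest to the WT range. The log2 fold change was -1.17 ± 0.24 (edgeR, adjusted p = 0.00101), on 65, 29, 40 and 21 reads in KO hearts 1 to 4, against 117, 13, 14, 77 and 35 reads in WT hearts 1 to 5. Atg4c rested on 4 to 40 reads per heart, and its log2 fold change of -0.35 ± 0.32 did not pass the test (edgeR, adjusted p = 0.37). The ratio of Atg4d to Atg4a reads in single hearts was 11.9 to 31.0 in KO hearts and 1.69 to 3.36 in WT hearts. For Atg4b to Atg4a it was 5.59 to 10.4 in KO hearts and 2.31 to 2.57 in WT hearts. The lowest KO heart was above every WT heart in both ratios.

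Of the E1-like and E2-like enzymes, Atg3, the E2-like enzyme that transfers LC3 to phosphatidylethanolamine (chr16:45158785-45188538, plus strand), fell. It had 8.08, 5.48, 4.65 and 4.94 CPM in KO hearts 1 to 4, against 10.6, 13.5, 11.8, 13.4 and 11.5 CPM in WT hearts 1 to 5. KO heart 1 was the highest of its group and still below the lowest WT heart. Atg3 averaged 5.79 ± 1.56 CPM in KO hearts and 12.2 ± 1.26 CPM in WT hearts, 0.481 times the WT level (log2 fold change -1.06 ± 0.19, edgeR, adjusted p = 3.41e-04), and -0.36 and not called with the coding correction. Atg7, the E1-like enzyme of both conjugation routes, differed by 0.35 ± 0.18 (edgeR, adjusted p = 0.109) and passed only without WT replicate 2 among the fits that left out 1 heart (0.43, adjusted p = 0.0434), and limma-voom called it higher (0.40, adjusted p = 0.0306). Atg10, the E2-like enzyme for ATG12, differed by -0.35 ± 0.27 on 5 to 111 reads per heart (edgeR, adjusted p = 0.287). Atg5 and Atg12, the pair joined by this route, differed by 0.035 ± 0.21 and -0.35 ± 0.22. Neither passed the test (edgeR, adjusted p = 0.906 and 0.186).

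Both genes for ATG16-like proteins rose. Atg16l1, which brings the ATG12-ATG5 conjugate to the membrane, had 29.9, 28.2, 30.5 and 28.7 CPM in KO hearts 1 to 4, against 22.4, 17.7, 18.7, 25.4 and 15.2 CPM in WT hearts 1 to 5. Its log2 fold change was 0.54 ± 0.15 (edgeR, adjusted p = 0.00701). Atg16l2, a paralogue expressed at a lower level (chr7:101263034-101302251, minus strand), had 5.37, 6.44, 7.99 and 7.87 CPM in KO hearts 1 to 4, against 3.68, 1.73, 4.15, 3.16 and 2.21 CPM in WT hearts 1 to 5. The groups did not overlap, and WT heart 2 was lowest with 5 reads. The log2 fold change was 1.16 ± 0.23 (edgeR, adjusted p = 6.79e-04). The ratio of Atg16l1 to Atg16l2 reads overlapped, at 3.65 to 5.58 in KO hearts and 4.50 to 10.2 in WT hearts.

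Of the 7 mTOR genes, 1 rose, 2 fell and 4 did not pass the test. Mtor encodes the kinase shared by both mTOR complexes (chr4:148448611-148557683, plus strand). It had 98.0, 90.8, 97.7 and 97.6 CPM in KO hearts 1 to 4, against 75.8, 70.1, 65.7, 71.9 and 72.3 CPM in WT hearts 1 to 5. The difference was small beside that of Atg4d, yet the spread within each group was smaller still. Mtor averaged 96.0 ± 3.49 CPM in KO hearts and 71.2 ± 3.66 CPM in WT hearts, a log2 fold change of 0.43 ± 0.10 (edgeR, adjusted p = 0.00329), and 0.17 and not called with the transcript correction. Rheb, the GTPase that activates mTORC1 (chr5:24802823-24842624, minus strand), had 19.3, 12.6, 11.1 and 10.3 CPM in KO hearts 1 to 4, against 19.95, 24.6, 22.5, 21.7 and 21.0 CPM in WT hearts 1 to 5. KO heart 1 lay just under the lowest WT heart and the other KO hearts well below. Its log2 fold change was -0.70 ± 0.18 (edgeR, adjusted p = 0.00433), and 0.067 and not called with the correction for coding GC content and length. Rictor, the defining subunit of mTORC2 (chr15:6708379-6800401, plus strand), had 10.2, 9.33, 9.66 and 4.51 CPM in KO hearts 1 to 4, against 12.5, 10.8, 14.8, 14.1 and 13.6 CPM in WT hearts 1 to 5. KO heart 4 was far below the rest of its group. The log2 fold change was -0.64 ± 0.21 (edgeR, adjusted p = 0.0183) and -0.44 without KO replicate 4 (adjusted p = 0.0257). With the transcript correction it was 0.0089 and not called.

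The remaining mTOR genes among the 33, Rptor, Mlst8, Tsc1 and Tsc2, showed smaller differences in the uncorrected fit. Other mTOR partners are given with the further pathway genes. Rptor, the defining subunit of mTORC1, had 56.0, 51.4, 60.5 and 62.8 CPM in KO hearts 1 to 4, against 48.2, 51.3, 52.7, 40.9 and 48.3 CPM in WT hearts 1 to 5. It differed by 0.26 ± 0.12 and did not pass edgeR's test (adjusted p = 0.0747), while DESeq2 (adjusted p = 0.0449) and limma-voom (adjusted p = 0.0334) called it higher. Within each heart the ratio of Rptor to Rictor reads was 5.503 to 13.9 in KO hearts and 2.90 to 4.77 in WT hearts. The pair differs in transcript GC content, 56.5% in Rptor and 42.5% in Rictor, and with the transcript correction neither was called (Rptor -0.17, Rictor 0.0089). Mlst8, a subunit of both complexes, differed by 0.14 ± 0.17 (edgeR, adjusted p = 0.531). Tsc1, which stabilises TSC2, had 38.6 to 44.8 CPM in KO hearts and 28.7 to 41.9 CPM in WT hearts, a log2 fold change of 0.22 ± 0.13 (adjusted p = 0.184). Tsc2, which holds the activity that switches off RHEB, had 145 to 168 CPM in KO hearts and 156 to 167 CPM in WT hearts, a log2 fold change of -0.048 ± 0.11 (adjusted p = 0.725). The ratio of Tsc2 to Tsc1 reads overlapped, at 3.23 to 4.25 in KO hearts and 3.98 to 5.59 in WT hearts.

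**Figure D2:**
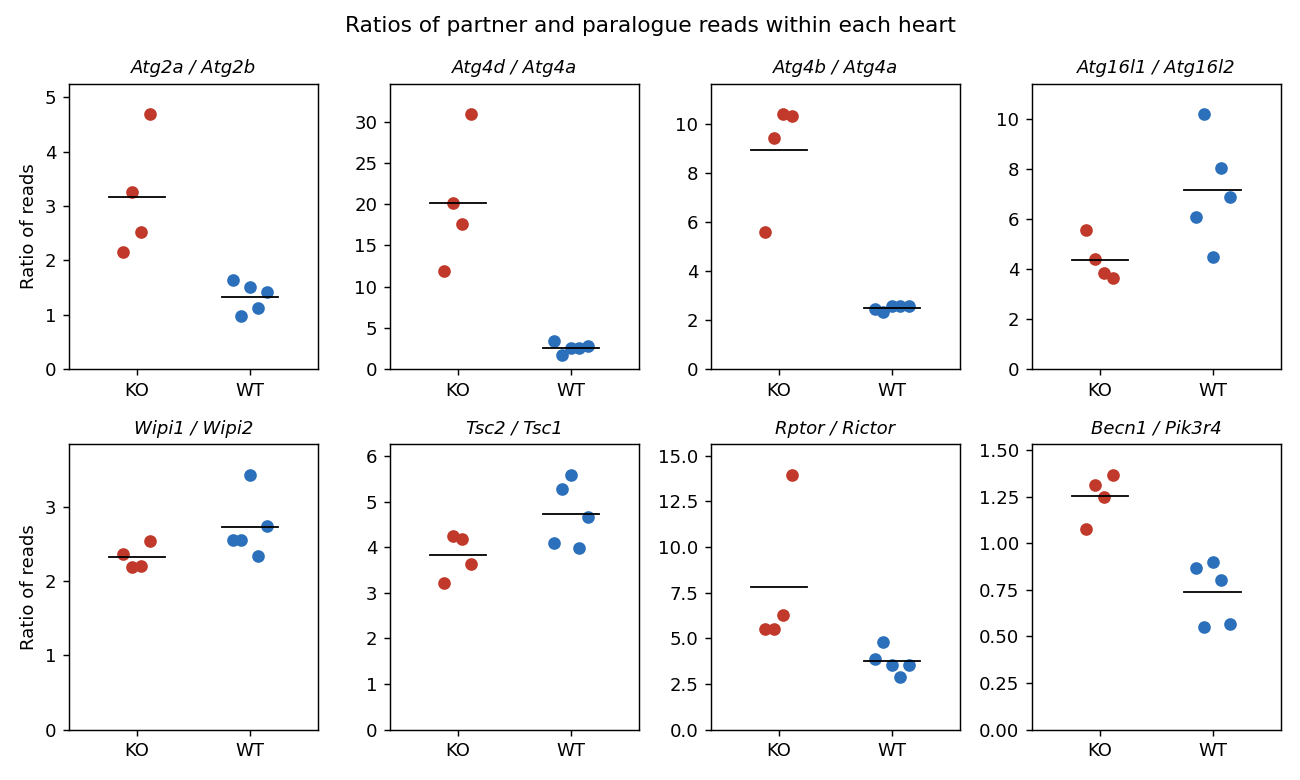
Each point is the ratio of 2 genes' read counts within 1 heart (4 KO hearts left, 5 WT hearts right, bars at the group means), on an axis that starts at 0. The KO hearts lie above all WT hearts for Atg2a over Atg2b, Atg4d over Atg4a, Atg4b over Atg4a, Rptor over Rictor and Becn1 over Pik3r4, and the groups overlap for the other 3 pairs. Each pair that lies apart includes a gene whose own CPM did not overlap, as was so for 41.6% of all tested genes. The share of all gene pairs that lie apart was not computed. The ratios are not corrected for base composition, and Rptor and Rictor stood at -0.17 and 0.0089 on the log2 scale with the transcript correction.

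The direction of the change followed base composition, among the 33 genes as among all genes. Transcript GC content, taken from the longest GENCODE transcript, ran from 39.1% in Rb1cc1 to 60.0% in Atg2a. Across genes, which are not independent replicates and share the same 9 libraries, Spearman's rho between GC content and log2 fold change was 0.63 over the 33 genes and 0.61 over 12510 tested genes. All tested genes were divided by GC content into 4 bins of equal number. Of the 10 genes in the lowest bin, 4 were called lower and 1 higher, and their median log2 fold change was -0.35, beside -0.59 for all genes of that bin, of which 53.0% were called lower and 3.80% higher. Of the 6 in the second bin, 1 was called higher and 1 lower, where 11.5% of all genes of the bin were higher and 29% lower. Of the 14 in the third bin, 6 were called higher, where 32.6% of all genes of the bin were, with a median of 0.27 beside 0.21. Of the 3 in the highest bin, 2 were called higher, where 57.5% of all genes of the bin were, with a median of 0.64 beside 0.59. Each gene's log2 CPM minus its mean over the 9 hearts had slopes on GC content of 0.157 to 0.66 in KO hearts and -0.402 to -0.196 in WT hearts, for a GC step of 10 points. These slopes are relative to the 9-heart mean and sum to 0, so they show a difference between hearts and not which group departs. The 1 gene called higher in the lowest bin was Becn1, with a GC content of 45.04%.

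**Figure D3:**
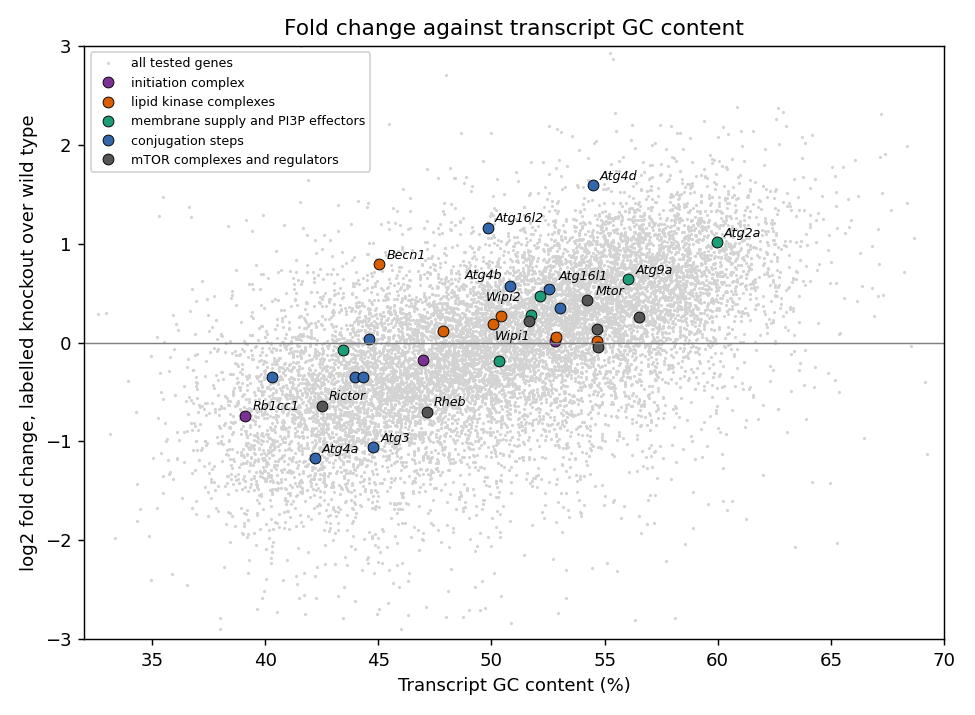
The log2 fold change (KO over WT) of each gene is plotted against the GC content of its longest transcript, with all tested genes in grey, the 33 genes in colour by role and the called ones named. Of 12511 genes with a GC value, 32 lie outside the plotted range. The coloured points climb with GC content like the grey cloud (Spearman's rho 0.63 and 0.61).

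The contrast in composition is visible in the coding sequences. The first 150 coding bases of 3 called genes are shown because these differ in composition and in direction, 5′ to 3′, from the APPRIS principal transcript in GENCODE vM21 (GRCm38), with every G and C in capitals. Atg4d and Atg2a were higher in KO hearts, and Atg4a was lower. In this window G and C make up 70% in Atg4d and 57.3% in Atg2a, against 42.0% in Atg4a.
Atg4a: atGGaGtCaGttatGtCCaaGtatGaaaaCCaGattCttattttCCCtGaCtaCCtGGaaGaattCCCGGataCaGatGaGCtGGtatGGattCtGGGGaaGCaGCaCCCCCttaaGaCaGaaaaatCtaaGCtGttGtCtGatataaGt
Atg4d: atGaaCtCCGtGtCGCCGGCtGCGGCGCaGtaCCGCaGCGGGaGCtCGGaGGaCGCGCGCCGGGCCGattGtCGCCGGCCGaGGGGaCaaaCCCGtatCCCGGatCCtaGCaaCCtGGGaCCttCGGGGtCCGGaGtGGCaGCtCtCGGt
Atg2a: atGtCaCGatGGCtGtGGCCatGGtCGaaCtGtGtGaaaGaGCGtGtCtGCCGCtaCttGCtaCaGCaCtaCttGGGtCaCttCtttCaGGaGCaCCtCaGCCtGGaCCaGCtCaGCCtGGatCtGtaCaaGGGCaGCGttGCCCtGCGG
Over the whole coding sequence, GC content was 59.9% in Atg4d, 59.7% in Atg2a and 44.9% in Atg4a.

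When the trends with transcript GC content and length were removed from each heart, 7 genes were called higher that had been called higher before, and 3 lower that had been lower before. Of all 12511 genes tested with this correction, 18.6% were called higher and 19.4% lower, beside 8 and 5 of the 33 genes. The correction also takes away any difference with the genotype that happens to follow GC content or length, so both sets of values are given. Spearman's rho with GC content over the 33 genes was then -0.041. The trend on this same GC content had been removed over all genes, so this low value is no check on the correction. The log2 fold change was larger after this correction for Becn1 (1.22 after, 0.79 before) and Atg16l2 (1.26, 1.16). With the coding correction described below, these stood at 0.85 and 0.69, so the gain of Atg16l2 did not hold there. The transcript-corrected value was smaller for Atg4d (1.28, 1.59), Atg4b (0.53, 0.57), Atg16l1 (0.36, 0.54), Wipi2 (0.35, 0.47) and Atg2a (0.36, 1.01). All were still called higher. Atg3 (-0.64, -1.06), Atg4a (-0.61, -1.17) and Rheb (-0.49, -0.70) were nearer to 0 and still called lower.

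The corrected fits drew other genes in or out. Rb1cc1 (0.089 after correction), Atg9a (0.18), Wipi1 (0.16), Mtor (0.17) and Rictor (0.0089) no longer passed the test. Vmp1 was called higher after correction (0.45, edgeR, adjusted p = 0.0146), and Ambra1 (-0.32, adjusted p = 0.0218) and Tsc2 (-0.36, adjusted p = 0.00928) were called lower. With the GC content and length of the coding sequence in place of the transcript, 20.1% of 12150 genes were called higher and 20.5% lower (40.6% in all), beside 10 and 1 of the 33. Atg3 (-0.36) and Rheb (0.067) then lost their calls, while Pik3c3 (0.54, edgeR, adjusted p = 0.00523) and Atg5 (0.70, adjusted p = 0.0282) gained one. With the principal transcript, 18.7% of all genes were called higher and 19.5% lower, beside 7 and 5 of the 33, and Wipi2 lost its call (0.24).

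Across the uncorrected fit and the 3 corrected ones, 7 genes kept 1 direction and passed every time, while 22.3% of the 12150 genes tested in all 4 did so, a share close to that of the 33. Becn1, Atg2a, Atg4b, Atg4d, Atg16l1 and Atg16l2 were higher in each (11% of all genes), and Atg4a was lower in each (11.3% of all genes). Of the rest, 13 passed in some fits only and 13 in none, and no gene was called in opposite directions. By role, the uncorrected and the transcript-corrected fit called 1 and 0 of the 3 initiation genes, 1 and 2 of the 6 lipid kinase genes, 4 and 3 of the 6 membrane genes, 6 and 6 of the 11 conjugation genes and 3 and 2 of the 7 mTOR genes. Over all tested genes, the same fits called 51.4% and 38.1%. For the initiation genes, none of the 3 corrected fits gave an unadjusted p under 0.05 either (0 of 3 in each), while DESeq2 and limma-voom without correction each called Rb1cc1 alone.

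**Figure D4:**
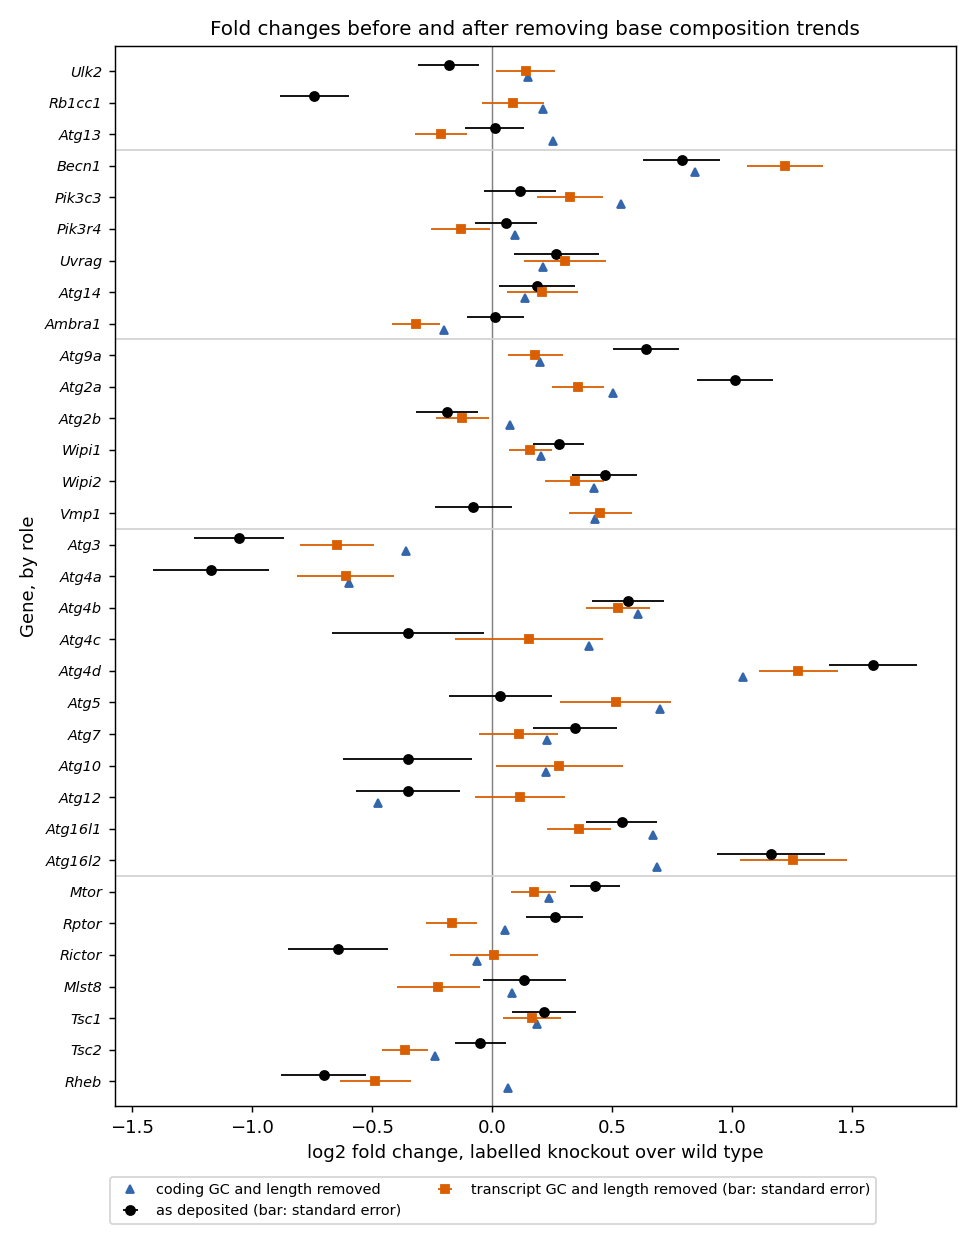
Points give the log2 fold change (KO over WT) of each of the 33 genes as counted (circles), with transcript GC and length trends removed (squares) and with coding GC and length trends removed (triangles), with bars of 1 standard error on circles and squares. Becn1, Atg4b, Atg4d, Atg16l1, Atg16l2 and Atg2a stay right of 0 and Atg4a left of 0 in all 3, while Rb1cc1 and Rictor move to near 0.

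Levels between genes are compared on FPKM, which is per length and is the second unit deposited. Wipi1 was the most abundant of the 33 genes, at 62.0 ± 4.13 FPKM in KO hearts and 34.8 ± 9.41 FPKM in WT hearts (SD, n = 4 and n = 5). Tsc2 (33.9 ± 1.99 FPKM in KO hearts and 23.1 ± 5.43 FPKM in WT hearts) and Atg9a (38.6 ± 2.39 FPKM in KO hearts and 17.1 ± 6.42 FPKM in WT hearts) followed, and their WT ranges overlap each other and that of Wipi1. At the other end stood Rictor, at 1.13 ± 0.390 FPKM in KO hearts and 1.19 ± 0.301 FPKM in WT hearts. Atg16l2 was next to last in WT hearts, with 4.26 ± 0.619 FPKM in KO hearts and 1.28 ± 0.570 FPKM in WT hearts. Of the 32 pairs of neighbours in the WT order, 30 had means that differed by less than the larger of their SDs, so most of the order is not resolved. Atg4d stood 5th of 33 in KO hearts and 18th in WT hearts. Atg2a stood 7th in KO hearts and 16th in WT hearts, and Atg3 stood 27th in KO hearts and 13th in WT hearts.

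**Figure D5:**
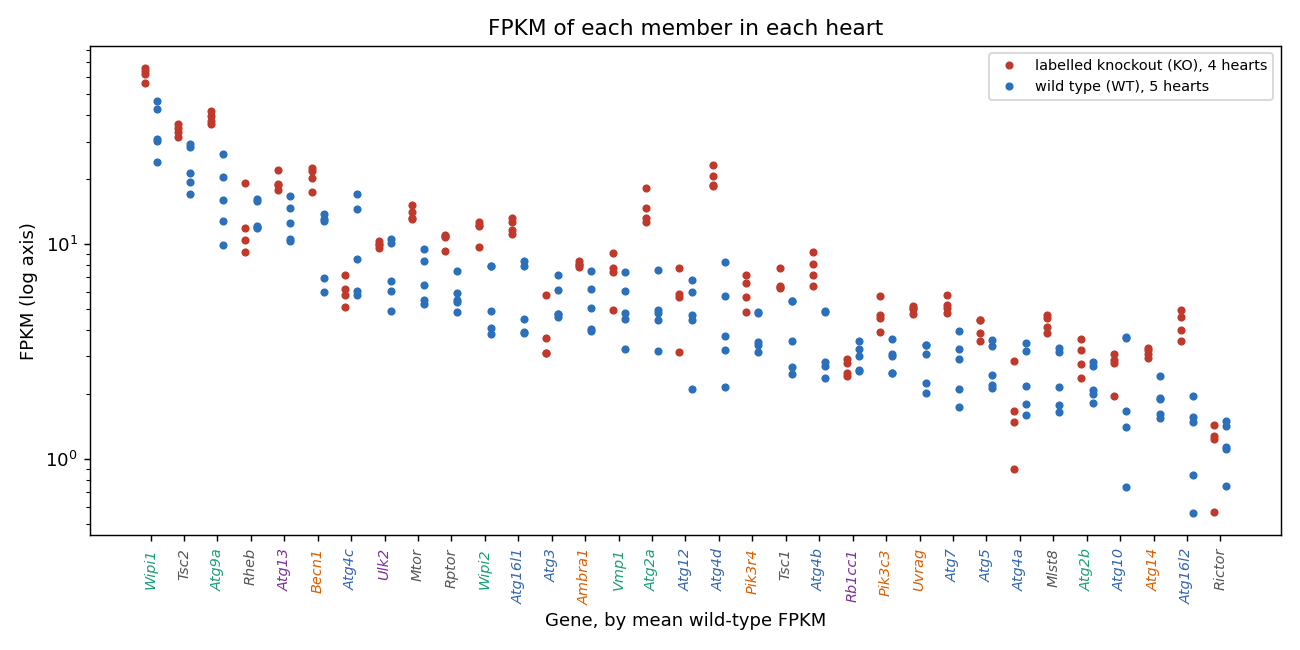
Deposited FPKM values of each gene in each heart (log axis), KO hearts in red left of WT hearts in blue, with genes ordered by their WT mean. Wipi1 is highest and Rictor lowest. All 4 KO hearts lie above all 5 WT hearts for Atg4d and Atg2a, and for many other genes too, among them Mtor and Tsc2. This scale is shifted as a whole, with a median log2 fold change of 0.44 over all tested genes.

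The FPKM values put most of the 33 genes higher in KO hearts, and this scale is shifted as a whole. By limma on log2(FPKM + 1), which understates the change of low genes, 22 of the 33 were called higher, where 47.2% of 12637 tested genes were, and 0 were called lower, where 6.09% were (53.3% of all tested genes in either direction). At an unadjusted p under 0.05 limma also put 0 lower, while edgeR and DESeq2 on the counts each called 5 lower. The median log2 fold change in FPKM was 0.44 over all tested genes and 0.56 over the 33. With each heart centred on its median, 11 were called higher and 6 lower, where 25.4% and 28.4% of all tested genes were (53.9% in all). Those 11 were the 10 genes of the count fit and Rptor, and the 6 were its 5 genes and Atg4c. For Atg4c the scales part in single hearts, since it had 38, 20, 27 and 25 reads in KO hearts 1 to 4, against 40, 4, 12, 18 and 21 reads in WT hearts 1 to 5, but 5.78, 7.15, 5.10 and 6.17 FPKM in KO hearts 1 to 4, against 6.05, 14.6, 17.1, 5.78 and 8.54 FPKM in WT hearts 1 to 5. WT heart 2 had the fewest reads and the second highest FPKM, and the way this estimate was made is not given in the sources used here.

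Libraries did not keep strand, so reads from stretches that 2 genes share on opposite strands cannot be told apart. In GENCODE vM21, 21 of the 33 genes share no exonic base with another gene. Becn1 shares 3104 bases with Cntd1 on the opposite strand. Cntd1 had too few reads to be tested, at 0.0983 ± 0.0847 CPM in KO hearts and 0.157 ± 0.128 CPM in WT hearts. Atg4d shares 1405 bases with Kri1, which was itself higher in KO hearts (log2 fold change 0.62 ± 0.16, edgeR, adjusted p = 0.00531). Tsc2 shares 693 bases with Pkd1, also higher (0.72 ± 0.13, adjusted p = 3.25e-04), and Mlst8 shares 997 bases with Bricd5, which is listed with 0 reads in all 9 hearts and with 3.96 to 6.58 FPKM in KO hearts and 0.831 to 2.78 FPKM in WT hearts. The part of these overlaps in the values was not tested.

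Other genes of the same pathways also moved in both directions. Of 86 further autophagy and mTOR genes, 85 were tested, and 28 were called higher and 22 lower, with a median log2 fold change of 0.20. Of all 12640 tested genes, 26.2% were called higher and 25.2% lower. With the transcript correction 17 of the further genes were higher and 16 lower, beside 18.6% and 19.4% of 12511 genes. These shares of all genes also stand beside the counts of the single lists below. Of the 5 LC3 family genes, 2 were higher and 1 lower. Gabarap, the founder of its branch, fell (87.3 ± 9.51 CPM in KO hearts and 193 ± 45.9 CPM in WT hearts, log2 fold change -1.15 ± 0.16, edgeR, adjusted p = 6.68e-05), and Map1lc3b, the usual LC3 marker, rose (182 ± 20.04 CPM in KO hearts and 123 ± 10.6 CPM in WT hearts, 0.57 ± 0.12, adjusted p = 0.00117). With the correction Gabarap was still called lower (-1.26), and Map1lc3b was no longer called (0.17). The other LC3 family gene called higher, Map1lc3a (log2 fold change 0.56 ± 0.13, edgeR, adjusted p = 0.00237), turned with the correction and was called lower (-0.42, adjusted p = 0.0159). It is named after its values were seen. Of the 8 other initiation and lipid kinase factors, 2 were higher and 2 lower. Sh3glb1, a membrane-bending partner of Beclin 1 and UVRAG, fell (52.4 ± 13.5 CPM in KO hearts and 168 ± 16.0 CPM in WT hearts, -1.68 ± 0.16, edgeR, adjusted p = 6.09e-06, -1.08 with the transcript correction). Atg101, the ATG13 partner listed under an older symbol, rose (1.35 ± 0.23, adjusted p = 2.46e-04, 0.69 with the transcript correction).

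Of the 12 genes for fusion with lysosomes, 5 were higher and 2 lower, and those with the smallest p were Tecpr1, a tether protein (1.36 ± 0.16, edgeR, adjusted p = 1.89e-05, 0.78 with the transcript correction), and Vps41, a subunit of the HOPS tether (-1.12 ± 0.19, adjusted p = 2.64e-04). Of the 13 Rag GTPase and Ragulator genes, which dock mTORC1 on the lysosome, 5 were higher and 2 lower. Lamtor4 (1.24 ± 0.17, edgeR, adjusted p = 6.12e-05) and Lamtor2 (1.34 ± 0.22, adjusted p = 1.72e-04), subunits of Ragulator, rose, and stood at 0.60 and 0.56 with the transcript correction. Of the 16 GATOR and amino acid sensor genes, 7 were higher and 1 lower, and Sec13, a subunit of GATOR2, rose (0.71 ± 0.14, edgeR, adjusted p = 5.89e-04). With the transcript correction edgeR called 2 of the 16, both higher, and Sec13 was 1 of these (0.48).

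Of the 9 mTOR partners and assembly factors, 2 were higher and 3 lower. Akt1s1, an inhibitory mTORC1 subunit, rose (0.87 ± 0.16, edgeR, adjusted p = 4.09e-04), as did Telo2, an assembly factor (1.06 ± 0.25, adjusted p = 0.00251). Neither passed after the correction (0.056 and 0.47). The 3 called lower were Tbc1d7 (-0.72 ± 0.19, edgeR, adjusted p = 0.00485), Deptor (-0.66 ± 0.18, adjusted p = 0.00769) and Tti1 (-0.33 ± 0.13, adjusted p = 0.0441). With the transcript correction they stood at -0.93, -0.11 and -0.34, and Deptor was no longer called. Of 12 tested kinase inputs and stress inputs, 3 were higher and 6 lower. Stk11, the kinase that activates AMPK, rose (1.13 ± 0.14, edgeR, adjusted p = 2.27e-05, 0.45 with the transcript correction), and Pdpk1, which activates AKT and S6 kinases, fell (-1.11 ± 0.15, adjusted p = 5.81e-05). Of 10 mTOR targets, 2 were higher and 5 lower. The translation repressors 4E-BP1 and 4E-BP2 parted, with Eif4ebp1 at 49.0 ± 4.24 CPM in KO hearts and 21.6 ± 3.38 CPM in WT hearts (1.15 ± 0.13, edgeR, adjusted p = 1.63e-05) and Eif4ebp2 at 39.4 ± 5.12 CPM in KO hearts and 124 ± 20.2 CPM in WT hearts (-1.64 ± 0.15, adjusted p = 4.11e-06). With the correction they stood at 1.32 and -1.77, still in opposite directions.

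TFEB, a target of mTORC1, switches on lysosome and autophagy genes through the CLEAR element. Tfeb was called higher in KO hearts, and was chosen here after its values were seen. It had 30.6 ± 6.11 CPM in KO hearts and 11.5 ± 2.42 CPM in WT hearts. Its log2 fold change was 1.38 ± 0.17 (edgeR, adjusted p = 2.75e-05), and 0.53 with the transcript correction. Tfe3, in the same list of mTOR targets and also named after its values were seen, went the other way. It was called lower, with a log2 fold change of -0.46 ± 0.15 (edgeR, adjusted p = 0.0187). Tfe3 stayed lower with the transcript (-0.998), principal transcript (-0.97) and coding (-0.94) corrections. Promoters of 28 of the 33 genes are in the RefSeq table used here, as windows of 300 bases from 250 before to 50 after the start site. The core of the element, CACGTG, which reads the same on both strands, was found in 5 of the 28 (Atg14, Atg3, Atg5, Atg7 and Rheb) and in 8.09% of 27025 genes. The longer TCACGTG, which contains that core and was searched on both strands, was found in 4 of the 28 and in 4.29% of genes. The 10-base palindromic form of the element was in 0 of the 28 and in 0.37% of genes. The forkhead motif GTAAACA, searched on both strands, was in 0 of the 28 and in 4.05% of genes. Of the 5 genes with the core, Atg3 and Rheb were called in the uncorrected fit, both lower. That fit called 25.2% of all tested genes lower and 51.4% in either direction. With the coding correction neither was called (-0.36 and 0.067), and Atg5, which also has the core, was called higher (0.70). Shown are the 250 bases before the start site of Atg3 and Rheb (RefSeq, GRCm38.p6), with CACGTG in capitals. They are read 5′ to 3′ on the gene's strand, for Atg3 chr16:45158579-45158828 (plus strand) and for Rheb chr5:24842362-24842611 (minus strand).
Atg3: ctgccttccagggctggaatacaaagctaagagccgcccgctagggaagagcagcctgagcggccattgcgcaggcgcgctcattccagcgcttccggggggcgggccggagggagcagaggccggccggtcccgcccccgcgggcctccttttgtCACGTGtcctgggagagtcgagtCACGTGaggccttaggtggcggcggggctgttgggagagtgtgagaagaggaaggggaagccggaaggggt
Rheb: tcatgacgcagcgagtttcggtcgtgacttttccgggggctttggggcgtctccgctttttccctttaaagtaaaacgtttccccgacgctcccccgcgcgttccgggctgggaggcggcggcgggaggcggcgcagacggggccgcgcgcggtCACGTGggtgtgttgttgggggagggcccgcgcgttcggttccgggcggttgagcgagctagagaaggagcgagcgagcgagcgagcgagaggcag
The core starts 94 and 71 bases before the start site in Atg3 and 96 bases before it in Rheb. A match is a stretch of letters, and no binding was measured.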

How the data were processed

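The authors deposited read counts per gene and FPKM values for the same 9 hearts, with 1 column per heart in each table. HTSeq, Cufflinks 2.1, TopHat2 2.0.10, TopHat, edgeR, Bowtie2 and DESeq are named with the mm10 build in the submitters' processing notes. What each did, and the annotation, is not given in the labels. Per the labels' protocols, libraries were single-end and without strand. Depth was 4415183 to 20827699 assigned reads per heart, which limits the genes with few reads.

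Counts were fitted with edgeR 4.0.16 in R 4.3.3 (TMM factors, at least 10 reads and 15 in total, quasi-likelihood F test, no replicate term) over all genes, with Benjamini-Hochberg adjustment over all 12640 tested and a threshold of 0.05. Standard errors derive from the F statistic. FPKM values were tested with limma 3.58.1 on log2(FPKM + 1) for a mean of at least 0.5. The GC and length correction took as offsets the lowess trends (span 0.3) of log2 expression, heart by heart, on properties of GENCODE vM21 transcripts. Procedures were tested on simulated counts. Alternatives were RLE and upper-quartile factors, other filters, DESeq2 1.42.0, limma-voom, each heart left out, both shallow WT hearts left out, the replicate number as a block, mitochondrially encoded genes and Rn45s left out, and FPKM pseudocounts of 0.1 and 0.01. Corrections on principal transcripts, on coding sequences and without KO replicate 4 were added after seeing the data. Hearts of 1 group differed by more than sampling noise, with a chi-square per degree of freedom of at least 4.84.

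The 33 genes and all lists were chosen with earlier results of these data known. Values in each heart were given for the 3 called genes of smallest p in each role and for paralogues and partners, and up to 2 called genes of smallest p for each of the 8 other lists. Map1lc3a, Ulk1, Tfeb, Tfe3, Tbc1d7, Deptor and Tti1 were named outside this rule. The ratios of Becn1 to Pik3r4 and to Pik3c3 were also taken outside it. The targeted transcript is not reported here.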

Additional observations from a re-analysis of the deposited data

Results flagged for a closer look

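In 7 of the 66 gene and group combinations examined, 1 heart lay far from the rest of its group by Dixon's criterion, which chance meets in about 1 of 20 groups. Among WT hearts, all 3 cases were replicate 2, the heart with the fewest reads. Uvrag stood at 17.3 CPM there, with the nearest WT heart at 11.2 CPM. Atg5 stood at 12.1 CPM, with the nearest at 6.86 CPM. Atg12 was low, at 7.63 CPM, with the nearest at 14.1 CPM. Among KO hearts, 3 of the 4 cases were replicate 4, the heart with the highest slope on GC content of log2 CPM relative to the mean of the 9 hearts (0.66 for a step of 10 points). Atg9a stood at 129.8 CPM there, with the nearest KO heart at 109.4 CPM, and Atg4d at 46.5 CPM, with the nearest at 36.6 CPM. Rictor was low, at 4.51 CPM, with the nearest at 9.33 CPM. Mtor was low in KO replicate 2, at 90.8 CPM, with the nearest KO heart at 97.6 CPM and still above every WT heart. The part of depth and base composition in these values was not tested.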

How the results depend on the processing

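No call among the 33 genes changed under RLE and upper-quartile factors, a filter at 1 CPM, and without mitochondrially encoded genes and Rn45s. With no filter on reads, 1 call was lost, and 9 of the 33 were called higher. Leaving out 1 heart gave 9 to 11 higher and 5 lower among the 33, 2841 to 3399 higher and 2704 to 3353 lower over all genes, 26 to 30 and 18 to 23 of the other pathway genes, and 18 to 23 higher and 0 to 1 lower on FPKM. Genes with few reads, such as Atg4c, are limited by depth.

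Replicate numbers did not pair the hearts (correlations of same-numbered hearts -0.113, 0.0408, -0.0648 and -0.259). The replicate block gave 7 higher and 5 lower calls, without Wipi1, Wipi2 and Atg4b, and put Atg5 at -0.027. With the transcript correction as well, the block left 3 and 1 of the 33, 1538 and 1855 of all genes, and 10 other pathway genes higher. The correction alone left 17 of these higher, 18 on principal transcripts and 15 without KO replicate 4, where 2013 of all genes were higher. The coding correction left 1 of the 33 lower. Centred FPKM gave 11 and 6. The cause was not tested.

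Signs of log2 fold changes turned as follows. With the transcript correction they were Ulk2 0.14, Rb1cc1 0.090, Atg13 -0.21, Pik3r4 -0.13, Ambra1 -0.32, Vmp1 0.45, Atg4c 0.15, Atg10 0.28, Atg12 0.12, Rptor -0.17, Rictor 0.0089 and Mlst8 -0.22. With the block added they were Ulk2 0.14, Rb1cc1 0.036, Atg13 -0.20, Pik3r4 -0.17, Ambra1 -0.30, Vmp1 0.44, Atg4c 0.27, Atg10 0.31, Atg12 0.15, Rptor -0.18 and Mlst8 -0.26. On principal transcripts they were Ulk2 0.16, Rb1cc1 0.093, Atg13 -0.20, Pik3r4 -0.12, Ambra1 -0.32, Vmp1 0.46, Atg4c 0.17, Atg10 0.30, Atg12 0.13, Rptor -0.17, Rictor 0.020 and Mlst8 -0.22. On coding sequences they were Ulk2 0.15, Rb1cc1 0.22, Ambra1 -0.20, Atg2b 0.075, Vmp1 0.43, Atg4c 0.41, Atg10 0.22 and Rheb 0.067. With the correction and without KO replicate 4 they were Ulk2 0.091, Rb1cc1 0.076, Atg13 -0.21, Pik3r4 -0.045, Ambra1 -0.30, Vmp1 0.52, Atg4c 0.020, Atg10 0.32, Atg12 0.25, Rptor -0.14, Rictor 0.17 and Mlst8 -0.16. Without both shallow WT hearts they were Atg13 -0.0038 and Ambra1 -0.055. Leaving out 1 heart moved Atg13 over -0.054 to 0.081, Ambra1 over -0.041 to 0.060, Vmp1 over -0.17 to 0.048 and Atg5 over -0.097 to 0.19.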
